A study of Mus musculus with 15 samples.

Results

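The Sprouty and fibroblast growth factor (FGF) and hepatocyte growth factor (HGF) receptor genes were followed in muscle stem cells (MuSCs) and in quadriceps femoris muscle of mice that received a transplant of their own MuSCs. The 10 genes were chosen by symbol and are Fgfr1, Fgfr4, Fgf2, Met, Spry1, Spry2, Spry4, Spred1, Dusp6 and Etv5, of 56953 genes in each table. Bulk RNA sequencing was run on 15 libraries. The 6 MuSC libraries came from 3 mice, numbered 5, 6 and 11, with 1 library after autologous transplantation and 1 before it from each mouse. The cells after transplantation were biopsied from an area that had received no cells, so they are endogenous MuSCs of the host. The 9 muscle libraries were 6 from transplanted mice (numbers 4, 5, 6, 11, 14 and 94) and 3 from sham-operated mice (3, 12 and 192). All animals are given as wild type (WT) males of strain 129, 10 weeks old, 10 in number, and the labels name no transgene and no drug. The labels give no sorting markers for the MuSCs and no time between transplantation and sampling. A library is named for its group and its mouse, so that after 5 is the MuSC library of mouse 5 after transplantation.

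FGF receptors and Met, the HGF receptor, are receptor tyrosine kinases that signal through adaptors, Ras, Raf and MEK to the kinase ERK. ERK raises the transcription of its own brakes: Sprouty and Spred proteins act upstream on Ras and Raf, and the phosphatase Dusp6 removes the activating phosphates from ERK. In mouse satellite cells, HGF and FGF2 promote activation and entry into the cell cycle, and Spry1 is needed for a portion of cycling cells to return to quiescence.

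Library totals lay between 17.09 and 22.98 M counts (M for mega), and between 17873 and 20284 genes had a count. Pax7, the transcription factor that marks MuSCs, lay between 11.8 and 21.6 TPM (a level scaled for transcript length and library total) in the 6 MuSC libraries and between 0.06 and 0.26 TPM in muscle. Calcr, a receptor of quiescent MuSCs, was at 0 TPM in 5 of the 6 MuSC libraries and at 0.03 TPM in before 5. Of the same list of 10 MuSC markers, Myod1 lay between 532 and 958 TPM in MuSCs and between 11.0 and 19.9 TPM in muscle. Des did not separate them, at 533 to 920 TPM in MuSCs and 761 to 1003 TPM in muscle. Nor did Chrdl2, at 0 to 0.51 TPM in MuSCs and 0.04 to 0.37 TPM in muscle. Calcr was no higher in MuSCs, since it lay between 0.03 and 0.17 TPM in muscle. The leukocyte gene Ptprc was at 0 TPM in all 6 MuSC libraries. Cd68, of the same marker list, lay between 2.02 and 5.14 TPM there and between 1.37 and 3.77 TPM in muscle. Acta2, an actin of smooth muscle, lay between 172 and 1055 TPM in MuSCs and between 11.0 and 33.3 TPM in muscle. Myh11 and Rgs5, of the same list of 5 markers, went the other way. Myh11 lay between 0 and 0.03 TPM in MuSCs and between 3.41 and 5.8 TPM in muscle. For Rgs5 the ranges were 0.1 to 1.35 and 36.0 to 62.2 TPM. Transcripts of mature muscle fibres summed to between 900 and 7347 TPM in the after libraries and between 3999 and 12242 TPM in the before libraries over 10 markers. The library after 11 stood apart, with 1.2% of counts from mitochondrial genes, against 4.44 to 6.28% in the other MuSC libraries. Xist, a transcript of female cells, exceeded 1 TPM in 14 of 15 libraries (2.63 to 84.1 TPM), which goes against the label of male. The MuSC library names in the labels have 2 forms, the number first in after 5, before 5 and before 11 and a letter first in after 6, after 11 and before 6. The forms differed across the transcriptome, as described below. Muscle libraries are in 2 tables, 1 with shams 3 and 192 and transplanted 4, 14 and 94 (the 2-sham table) and 1 with sham 12 and transplanted 5, 6 and 11 (the 1-sham table).

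Promoters of the genes were read from RefSeq on build GRCm38.p6, from 250 bases before to 50 bases after each start site. Windows of 8 of the 10 genes were read, and Spry4 and Fgfr1 were left out. The windows of Spry1, Spry2 and Fgfr4 are shown because the results turn on these 3 genes: Spry1 was the only one of the 10 whose after and before libraries did not overlap, Spry2 dominated the Sprouty transcripts of MuSCs, and Fgfr4 had the largest ratio between MuSCs and muscle. Capitals mark the letters CCGGAA, the core bound by ETS factors such as Etv5, searched on both strands. The Spry1 window is chr3:37639697-37639996 on the + strand, the Spry2 window chr14:105896770-105897069 on the - strand and the Fgfr4 window chr13:55152568-55152867 on the + strand.
Spry1: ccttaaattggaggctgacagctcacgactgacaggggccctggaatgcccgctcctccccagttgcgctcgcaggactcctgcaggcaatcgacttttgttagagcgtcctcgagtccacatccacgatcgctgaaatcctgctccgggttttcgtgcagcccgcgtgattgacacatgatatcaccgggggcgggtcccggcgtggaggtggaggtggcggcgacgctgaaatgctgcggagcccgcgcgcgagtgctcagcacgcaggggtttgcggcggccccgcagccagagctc
Spry2: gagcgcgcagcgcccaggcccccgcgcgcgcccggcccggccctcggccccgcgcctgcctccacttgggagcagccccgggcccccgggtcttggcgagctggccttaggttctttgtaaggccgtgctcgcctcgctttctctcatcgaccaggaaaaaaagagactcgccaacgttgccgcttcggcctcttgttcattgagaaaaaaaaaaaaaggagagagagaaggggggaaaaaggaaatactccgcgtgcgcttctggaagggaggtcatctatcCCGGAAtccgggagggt
Fgfr4: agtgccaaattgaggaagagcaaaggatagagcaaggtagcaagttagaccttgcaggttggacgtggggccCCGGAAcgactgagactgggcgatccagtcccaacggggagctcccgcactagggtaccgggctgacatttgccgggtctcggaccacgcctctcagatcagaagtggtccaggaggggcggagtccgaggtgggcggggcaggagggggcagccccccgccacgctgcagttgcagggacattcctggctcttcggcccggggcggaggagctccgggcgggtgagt
The ETS letters stand 34 bases after the Spry2 start site and 177 bases before that of Fgfr4, on the coding strand in both. They occur in 14.9% of all 32851 promoter windows of this length. The Spry1 window holds none of the 4 motifs searched, which were also the cyclic AMP response element TGACGTCA (1.79% of windows), the E-box CAGCTG (16.3%) and the AP-1 site TGACTCA (5.2%). Met, on chromosome 6, has 1 AP-1 match 53 bases before its start site, and Etv5, on chromosome 16, has 1 E-box match 206 bases before 1 of its 2 starts. A match is a run of letters and says nothing of binding.

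All 10 genes had counts in both sample types. Some were near the floor: Fgf2 had 3.29 to 14.4 estimated counts in the letter-first MuSC libraries and Fgfr4 9 to 27 in the muscle libraries. Of the 10, 7 were higher in every MuSC library than in every muscle library on the TPM scale. The share of all genes that separate in this way was not computed, so the 7 are not read as particular to these genes. Since MuSC and muscle values are in separate tables, their levels are set side by side without a test. In bulk samples, fewer cells of a type and less RNA per cell cannot be told apart. Fgfr4, an FGF receptor of myogenic cells, differed most. Its level was 17.1, 36.2 and 12.5 TPM in after 5, 6 and 11 and 15.4, 20.5 and 27.4 TPM in before 5, 6 and 11, against 0.19 to 0.6 TPM in the 9 muscle libraries. The median level was 18.8 TPM in MuSCs and 0.35 TPM in muscle, a ratio of 53.8. The MuSC and muscle ranges were separate, with after 6 the highest and after 11 the lowest of the MuSC libraries.

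Fgfr1, the broadly expressed FGF receptor, lay between 48.7 and 66.0 TPM in MuSCs and between 10.4 and 22.5 TPM in muscle, a ratio of medians of 3.30. Fgfr1 and Fgfr4 together made up nearly all FGF receptor transcripts of MuSCs. Fgfr1 held 75.5, 55.8 and 82.8% of the summed TPM of Fgfr1 to Fgfr4 in after 5, 6 and 11, against 78.0, 70.7 and 68.4% in before 5, 6 and 11. Fgfr4 held 21.1, 41.5 and 16.3% after and 18.2, 26.2 and 29.2% before in the same order of mice. These shares overlapped between the after and before libraries. In muscle, Fgfr4 held 1.21 to 3.07% in the transplanted and 0.84 to 2.63% in the sham libraries, and Fgfr2 with Fgfr3 held more, 7.01 to 12.8% and 5.12 to 12.3%.

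**Figure D1:**
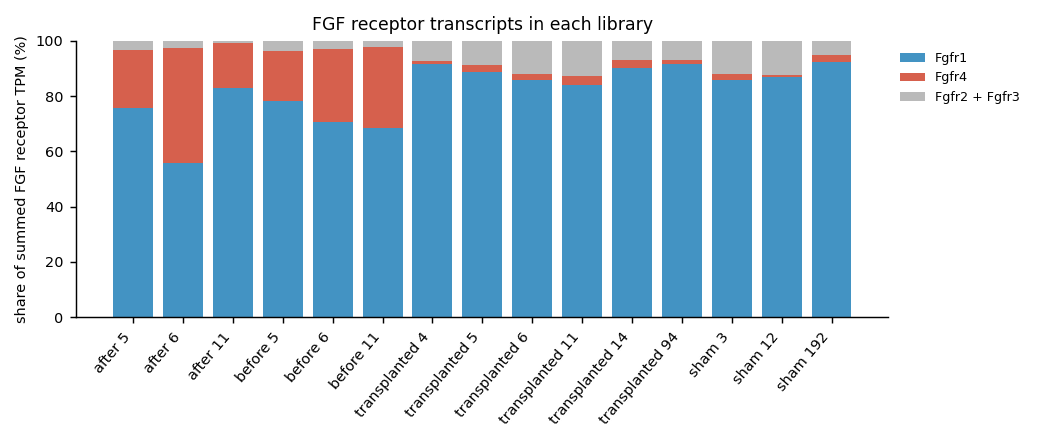
Share of the summed TPM of Fgfr1 to Fgfr4 held by each receptor (vertical axis, %) in each of the 15 libraries (horizontal axis; 1 bar a library). Fgfr4 takes 16.3 to 41.5% in the 6 MuSC libraries and at most 3.07% in muscle.

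Met was measured at 45.3, 15.6 and 3.54 TPM in after 5, 6 and 11 and at 30.1, 12.5 and 38.4 TPM in before 5, 6 and 11, against 2.35 to 4.25 TPM in muscle. After 11 lay within the muscle range, and the other 5 MuSC libraries lay above it. Fgf2, the ligand, ran the other way, with a median of 0.585 TPM in MuSCs (0.03 to 3.66) and of 3.97 TPM in muscle (1.96 to 4.35). After 5, at 3.66 TPM, and before 5, at 2.19 TPM, were the only MuSC libraries inside the muscle range for Fgf2. The other MuSC values were 0.07 and 0.03 TPM in after 6 and 11 and 0.15 and 1.02 TPM in before 6 and 11.

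Among the inhibitors, Spry2 was the main Sprouty transcript of MuSCs, at 49.4 to 75.3 TPM, against 4.49 to 8.28 TPM in muscle (ratio of medians 10.1). Spry4 lay at 3.7 to 8.74 TPM in MuSCs and 0.64 to 1.54 TPM in muscle, and Spred1, which recruits neurofibromin to Ras, at 3.44 to 20.5 and 1.5 to 2.88 TPM. Spry1 was the exception, with 5.51 to 16.2 TPM in MuSCs overlapping 3.89 to 8.84 TPM in muscle. All 3 before libraries were above the muscle range and all 3 after libraries were inside it. The ERK outputs Dusp6 and Etv5, an ETS transcription factor induced by FGF signalling, had medians of 20.6 and 15.8 TPM in MuSCs and of 4.69 and 3.49 TPM in muscle, with separate ranges. The effective length behind the Dusp6 values was shorter in sham 3 and transplanted 4 than in the other libraries, which enters its TPM there.

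**Figure D2:**
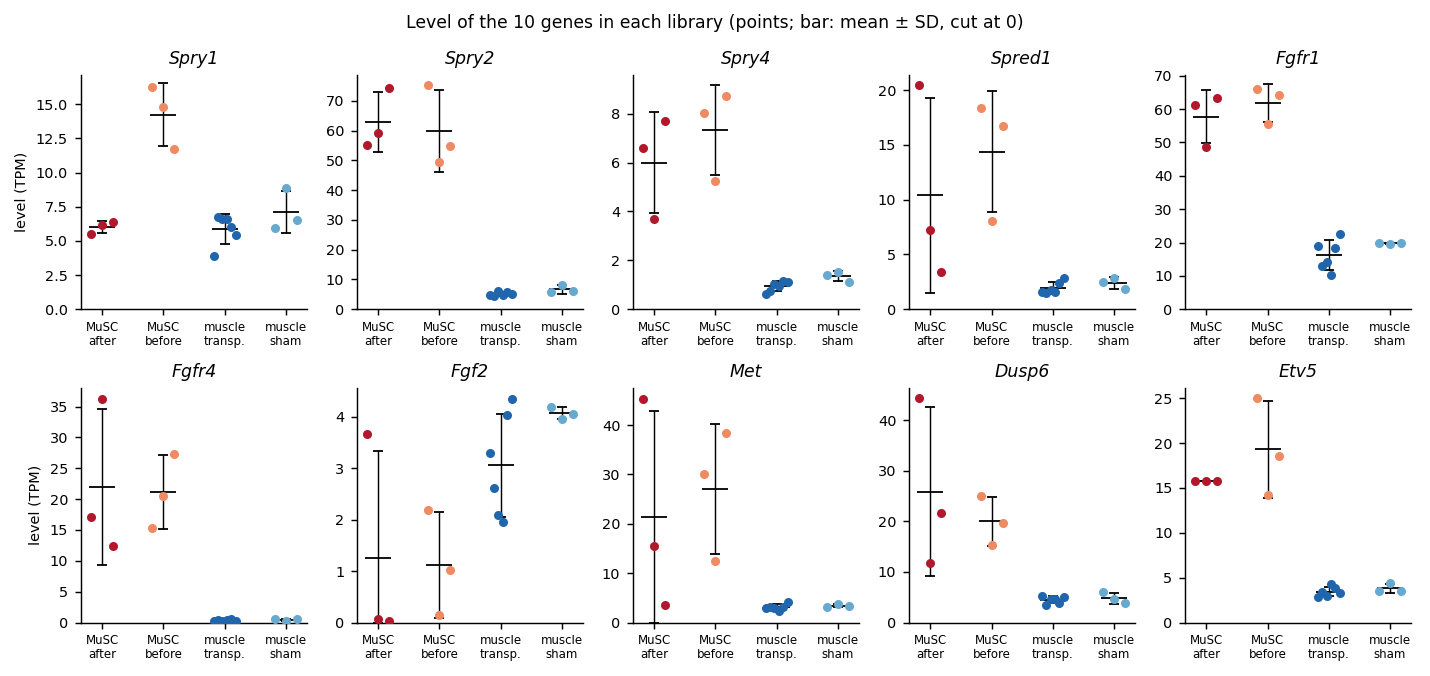
Level of each of the 10 genes (vertical axes, TPM, each from 0) in MuSC libraries after and before transplantation and in muscle of transplanted and sham-operated mice. Points are libraries (n = 3, 3, 6 and 3), the bar is the mean and the whiskers ± SD, cut at 0. Fgfr4 is at 12.5 to 36.2 TPM in MuSCs and at most 0.6 TPM in muscle, and the 3 Spry1 values after transplantation lie below the 3 before.

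In order of median TPM, the MuSC levels ran Fgfr1 (62.3), Spry2 (57.2), Met (22.8), Dusp6 (20.6), Fgfr4 (18.8), Etv5 (15.8), Spred1 (12.4), Spry1 (9.06), Spry4 (7.14) and Fgf2 (0.585). Fgfr1 and Spry2 overlapped each other, and so did each neighbour from Met down to Spry4. Spry2 and Met were separate, and so were Spry4 and Fgf2. In muscle the order was Fgfr1 (18.9), Spry1 (6.53), Spry2 (5.67), Dusp6 (4.69), Fgf2 (3.97), Etv5 (3.49), Met (3.16), Spred1 (1.83), Spry4 (1.11) and Fgfr4 (0.35). Fgfr1 was separate from Spry1 and Spry4 from Fgfr4, and the neighbours between them overlapped.

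The comparison of MuSCs after with MuSCs before transplantation asks whether endogenous stem cells change once the mouse has received cells elsewhere. None of the 10 genes passed the threshold of 0.05 on the adjusted p of edgeR's quasi-likelihood test, and over all genes 0 of 13512 passed (0.0%). At an unadjusted p under 0.05 there were 305 genes (2.26%), among them 1 of the 10, Spry1. DESeq2 called 18 genes and none of the 10. Groups did not overlap for 855 genes (6.33%), and for 403 (2.98%) the after libraries were lower. Spry1 was the 1 gene of the 10 whose groups did not overlap. The log2 differences of the 10 were positive for 5 and negative for 5, with a median of 0.05, beside 0.02 over all genes. Values below are in CPM, counts scaled to a common total with the trimmed mean of M values (TMM), which compares libraries and not genes.

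Spry1 had 8.78, 15.1 and 16.01 CPM in after 5, 6 and 11, against 26.5, 35.4 and 19.5 CPM in before 5, 6 and 11. Every after library lay below every before library. The mean was 13.3 ± 3.93 CPM after and 27.1 ± 8.00 CPM before (SD, n = 3 each), a log2 difference of -1.03 ± 0.37 (SE; 95% interval -1.90 to -0.16). The unadjusted p of edgeR's quasi-likelihood test was 0.0262 and the adjusted p was 0.873. All 3 mice were lower after, by log2 differences of -1.59 in mouse 5, -1.23 in mouse 6 and -0.28 in mouse 11. With the name form as a term the difference was -1.29, and it was -1.38 within the number-first libraries (1 after, 2 before) and -1.19 within the letter-first libraries (2 after, 1 before), where the lone library is assumed to vary like the others. Over the 6 fits that left out 1 library each it ranged from -1.23 to -0.79, and it was -1.18 without after 11. Markers of mature fibres had negative differences in 9 of 9 tested, with a median of -0.83, and their part in the Spry1 difference was not tested. Spry1 overlaps Gm42922 on the opposite strand, which had 49 counts over the MuSC libraries, against 733 after and 1585 before for Spry1. On the TPM scale the values were 5.51, 6.16 and 6.4 after and 16.2, 14.8 and 11.7 before for mice 5, 6 and 11, also without overlap.

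Spry2, the most abundant Sprouty transcript here, had 72.8, 119 and 154 CPM in after 5, 6 and 11, against 101, 97.2 and 75.4 CPM in before 5, 6 and 11. The groups overlapped, with after 5 the lowest of the 6 (log2 difference 0.34 ± 0.33). Spry4 had 21.2, 18.3 and 39.0 CPM after, against 26.2, 25.2 and 29.4 CPM before (-0.04 ± 0.35), and its highest library was after 11. As a share of the summed Sprouty TPM, Spry1 held 8.18, 8.93 and 7.25% in after 5, 6 and 11, against 16.3, 21.3 and 15.6% in before 5, 6 and 11. Spry2 held 82.1, 85.7 and 84.0% after and 75.6, 71.2 and 72.8% before. The Spry1 and Spry2 shares did not overlap between the groups, while the summed level of the 3 genes did, at 67.4 to 88.2 TPM after and 69.4 to 99.5 TPM before. Both shares are parts of the same sum, so the Spry2 share is not a result separate from the Spry1 share. The Spry2 level itself overlapped, at 55.3 to 74.1 TPM after and 49.4 to 75.3 TPM before. In muscle, Spry1 held 41.9 to 56.4% in transplanted and 45.8 to 47.6% in sham libraries.

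**Figure D3:**
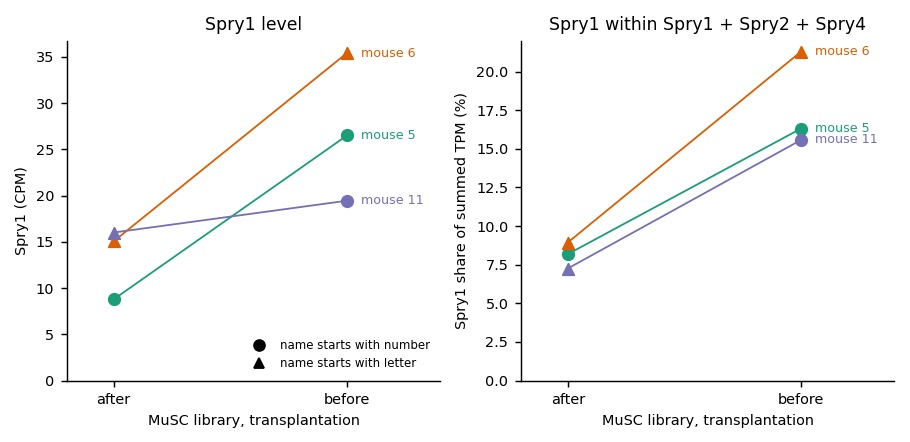
Spry1 in the MuSC libraries of the 3 mice, as level (left, CPM) and as share of the summed TPM of Spry1, Spry2 and Spry4 (right, %), after and before transplantation (horizontal axis). Each point is 1 library, lines join the libraries of a mouse, and the marker gives the form of the library name. All 3 lines are lower after.

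Spred1 had 83.6, 45.8 and 22.3 CPM in after 5, 6 and 11, against 75.8, 48.7 and 71.5 CPM in before 5, 6 and 11 (-0.37 ± 0.48). Its groups overlapped, and after 11 was far below the rest. After 11 is letter first and before 11 number first, so the name form enters the difference of mouse 11. Spred2, a second Ras-Raf inhibitor of that family, averaged 78.8 ± 23.3 CPM after and 108 ± 7.24 CPM before (-0.46 ± 0.30; edgeR's adjusted p = 0.873) and the groups did not overlap.

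Among the receptors, Fgfr1 had 151, 202 and 269 CPM in after 5, 6 and 11, against 172, 216 and 162 CPM in before 5, 6 and 11 (log2 difference 0.18 ± 0.30). Fgfr4 had 36.9, 121 and 43.2 CPM after, against 32.7, 67.4 and 58.2 CPM before (0.35 ± 0.52), and the sign rested on after 6, without which the difference was -0.40. Both receptors overlapped between the groups. Met had 197, 109 and 23.7 CPM after, against 135, 84.2 and 174 CPM before (-0.26 ± 0.69). The after value was above the before value in mice 5 and 6 and below it in mouse 11, and without after 11 the difference was 0.22. Only in mouse 11 did the name form differ, letter first in after 11 and number first in before 11. Transplantation and name form cannot be told apart within that mouse. The 95% interval for Met ran from -1.87 to 1.36.

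Fgf2 varied most among the 10 in MuSCs. It had 14.97, 0.426 and 0.175 CPM in after 5, 6 and 11, against 8.84, 0.875 and 4.35 CPM in before 5, 6 and 11 (0.15 ± 1.5). The 3 low libraries are the letter-first ones, with 3.29 to 14.4 estimated counts. Leaving out after 5 turned the difference to -3.95 and leaving out before 6 to -0.35, and with the mouse as a replicate block it was -1.32. Fgf2 overlaps genes on the opposite strand, Nudt6 (437 counts over the MuSC libraries) and Gm42923 (172), and its estimated counts were not whole in 15 of 15 libraries. No source used here gives the strandedness of the counting, and without strand the reads of these genes cannot be told apart.

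The ERK outputs did not pass either. Dusp6 had 75.1, 32.0 and 57.1 CPM in after 5, 6 and 11, against 39.9, 39.1 and 32.7 CPM in before 5, 6 and 11 (0.56 ± 0.35), higher after in mice 5 and 11 and lower in mouse 6. Etv5 had 42.1, 61.1 and 66.1 CPM after, against 66.0, 56.5 and 51.7 CPM before (-0.04 ± 0.28). Both overlapped. On the TPM scale Etv5 was 15.8 in each of the 3 after libraries and 14.2 to 25.04 in the before libraries.

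Of 74 further genes of the pathway, 64 could be tested in MuSCs and none passed edgeR's adjusted threshold, with 38 positive and 26 negative log2 differences and a median of 0.18. At an unadjusted p under 0.05 there were 5 of the 64, beside 2.26% of all genes tested, and all had higher means after: the ERK phosphatases Dusp5, Dusp7 and Dusp9 and the ERK-responsive genes Junb and Ier3. Dusp5 averaged 179 ± 115 CPM after and 76.5 ± 19.8 CPM before (1.23 ± 0.47), with after 11 the highest library, and Junb, an AP-1 subunit, 121 ± 34.4 and 62.7 ± 23.1 CPM (0.95 ± 0.36). Dusp7 averaged 34.9 ± 5.18 CPM after and 21.7 ± 4.25 CPM before (0.69 ± 0.28). The groups did not overlap for Dusp5, Dusp7, Junb, Ier3, Myc and Spint1, which were higher after, and for Spred2 and Ptpn11, which were lower after, beside 6.33% of all genes tested. Ptpn11, which encodes the adaptor phosphatase SHP2, averaged 205 ± 12.2 CPM after and 254 ± 22.0 CPM before (-0.31 ± 0.24) and was lower after in 3 of 3 mice. The adjusted p by edgeR was 0.873 for each of the 5.

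The other brakes and targets named here overlapped between the groups. Dusp4, another ERK phosphatase, averaged 227 ± 36.3 CPM after and 199 ± 13.7 CPM before (0.19 ± 0.25), and Il17rd, the Sef inhibitor, 3.33 ± 2.58 and 2.32 ± 1.53 CPM (0.51 ± 0.74). Etv4 averaged 138 ± 53.3 CPM after and 104 ± 21.8 CPM before (0.41 ± 0.37) and Etv1 20.8 ± 11.4 and 18.5 ± 6.27 CPM (0.17 ± 0.46). The symbol Spry3, although on the list of 74, was not among the 56953 genes, so Spry3 could not be analysed.

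Among the ligands, Hgf, the Met ligand, averaged 2.84 ± 1.42 CPM after and 4.70 ± 1.76 CPM before (-0.72 ± 0.55), lower after in 3 of 3 mice with overlap. Fgf7 averaged 11.5 ± 13.4 and 3.21 ± 0.949 CPM (1.84 ± 0.84), with after 5 at 27.0 CPM, and Fgf1 0.607 ± 0.857 and 0.869 ± 0.672 CPM (-0.48 ± 1.13). Fgf21 averaged 1.47 ± 0.940 CPM after and 5.17 ± 3.22 CPM before (-1.80 ± 0.77). Fgf6, a muscle FGF, had 0 counts over the 3 after and 4 over the 3 before libraries and was not tested. The gene with the largest F statistic was Sdc1, a heparan sulphate co-receptor, among co-receptors (344 ± 119 CPM after, 211 ± 73.7 CPM before; 0.71 ± 0.39), Mapk3, which encodes ERK1, in the Ras cascade (0.56 ± 0.29) and Shc1 among adaptors (0.47 ± 0.31). St14, a protease that activates HGF, differed by 1.82 ± 1.13 and Fgfr3 by -0.41 ± 0.45.

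The 5 genes whose pattern over the 6 MuSC libraries was closest to Spry1, by root mean square difference of centred log2 CPM among 12128 genes, were Dusp22 (0.111), Hmgcll1 (0.121), H2bc12 (0.156), Hk1os (0.18) and Slc25a23 (0.185). All 5 were lower after in 3 of 3 mice, since they were chosen for that pattern. Dusp22 averaged 2.86 ± 1.09 CPM after and 5.80 ± 1.46 CPM before, and the other 4 were also under 10 CPM.

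By counts of genes without overlap, the form of the library name divided the MuSC libraries more than the transplantation did. Letter-first libraries were fitted against number-first ones after the data had been seen, with the transplantation group as a term. By edgeR this gave 0 genes at an adjusted p under 0.05 (0.0%) but 5562 of 13512 at an unadjusted p under 0.05 (41.2%). The transplantation fit had no name form term, so its share at an unadjusted p is not like for like. Name forms did not overlap for 7681 genes (56.8%), and 3814 were lower in the letter-first libraries (28.2%). Of the 10 genes, 4 did not overlap: Fgf2, Met and Spred1 were lower and Fgfr1 higher in the letter-first libraries. Fgf2 differed by -4.25 ± 0.75 (edgeR's adjusted p = 0.0532), with 0.175 to 0.875 CPM in the letter-first and 4.35 to 14.97 CPM in the number-first libraries. Met differed by -1.23 ± 0.55, Spred1 by -0.95 ± 0.32 and Fgfr1 by 0.51 ± 0.21. Spry1 was higher in the letter-first libraries by 0.72 ± 0.24, with overlap.

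The difference between name forms fell as transcript length grew. Its median over all genes was 0.79 for effective lengths under 1000 bases, 0.38 from 1000 to 2000, -0.04 from 2000 to 3000, -0.39 from 3000 to 4000, -0.63 from 4000 to 5000 and -1.04 from 5000 bases. The 3 genes lower in the letter-first libraries are the longest of the 10, at 5659 bases (Fgf2), 5726 (Spred1) and 6153 (Met), while Spry2 and Spry1 are the shortest at 1850 and 2237. Spry1, at 0.72, lay above the median of its length range, -0.04. Spry2, Fgfr4 (3039 bases), Fgfr1 (3627), Etv5 (3736), Spry4 (4518) and Spred1 also lay above the median of their range. Dusp6 (2366 bases, -0.33), Met and Fgf2 lay below it. The after group holds 2 letter-first libraries of 3 and the before group 1 of 3, so the name form and transplantation are partly confounded. Mouse 11 is the only mouse whose after and before libraries differ in name form. With name form as a term, the after minus before differences of Fgfr1, Fgfr4 and Met were -0.007, -0.006 and 0.002.

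**Figure D4:**
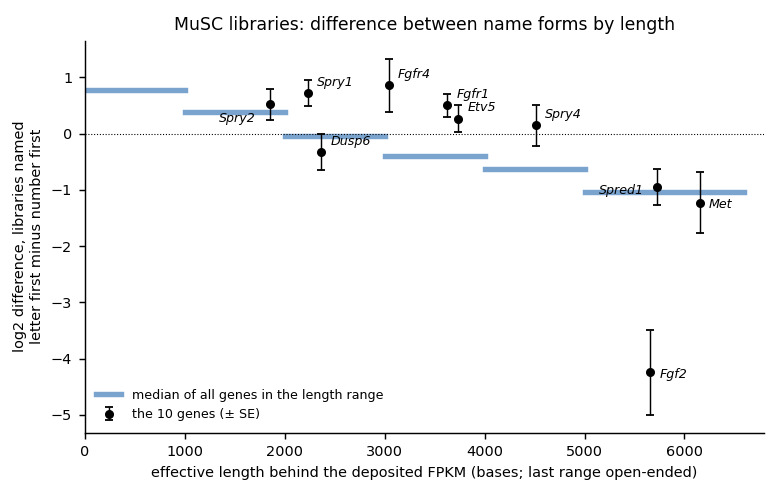
Log2 difference between letter-first and number-first MuSC libraries (vertical axis) against effective length in bases (horizontal axis). Points are the 10 genes ± SE and the bars the median over all genes in each length range, which runs from 0.79 under 1000 bases to -1.04 from 5000 bases.

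The muscle comparison asks whether hindlimb muscle of transplanted mice differs from that of sham-operated mice. By edgeR with the table as a term, 0 of 14375 genes (0.0%) and none of the 10 passed the adjusted threshold. There were 1018 genes at an unadjusted p under 0.05 (7.08%), none of them among the 10, and DESeq2 called 17 genes and none of the 10. Groups did not overlap for 303 genes (2.11%), 138 of them lower in transplanted muscle (0.96%), and for none of the 10. The log2 differences were negative for 7 of the 10 and positive for 3, with a median of -0.13, beside a median of -0.0005 over all genes.

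All 3 Sprouty genes and Spred1 had negative differences in transplanted muscle, within the spread, although Spry1 was at 0.004 in the 1-sham table alone. Spry1 had a lowest value of 7.77, a median of 12.6 and a highest value of 15.1 CPM in transplanted muscle, against 11.7, 14.5 and 11.7 CPM in sham 3, 12 and 192 (-0.18 ± 0.13). Spry2 lay between 7.26 and 10.4 CPM with a median of 8.36 CPM in transplanted muscle, against 9.11, 11.3 and 8.96 CPM in sham 3, 12 and 192 (-0.23 ± 0.12). Its highest library was sham 12, and the other shams lay inside the transplanted range. Spry4 lay between 2.65 and 4.52 CPM with a median of 4.23 CPM in transplanted muscle, against 5.57, 5.18 and 4.14 CPM in sham 3, 12 and 192 (-0.37 ± 0.20). Sham 3 and sham 12 were above every transplanted library and sham 192 was not. Spred1 lay between 8.15 and 11.9 CPM with a median of 9.19 CPM, against 12.5, 11.8 and 8.59 CPM (-0.18 ± 0.16). The unadjusted p by edgeR was 0.0812 for Spry2 and 0.0914 for Spry4, and the adjusted p values were 0.726 and 0.738.

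Receptors and ligand were close between the groups. Fgfr1 lay between 39.5 and 60.3 CPM with a median of 51.1 CPM in transplanted muscle, against 57.1, 53.7 and 51.7 CPM in sham 3, 12 and 192 (-0.08 ± 0.10). Met lay between 15.98 and 21.2 CPM with a median of 18.3 CPM, against 17.9, 18.4 and 18.1 CPM (0.04 ± 0.10; 95% interval -0.19 to 0.26). The sham values of both genes lay inside the transplanted range. Fgfr4 was low, at 0.591 to 1.21 CPM with a median of 0.810 CPM in transplanted muscle, against 0.536, 0.432 and 1.43 CPM in sham muscle (0.18 ± 0.45), or 111 and 46 counts in all. Fgf2 lay between 11.0 and 19.7 CPM with a median of 15.9 CPM, against 20.7, 16.8 and 18.4 CPM (-0.20 ± 0.12), and sham 3 was its highest library. The interval of Fgfr4 ran from -0.81 to 1.18, so its difference is known far less closely than that of Met.

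Dusp6 lay between 7.10 and 11.1 CPM with a median of 8.86 CPM in transplanted muscle, against 8.57, 8.26 and 7.96 CPM in sham 3, 12 and 192 (0.10 ± 0.16). Etv5 lay between 8.71 and 16.3 CPM with a median of 11.3 CPM, against 11.3, 12.1 and 10.4 CPM (-0.02 ± 0.16). For both, the sham values fell inside the transplanted range.

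**Figure D5:**
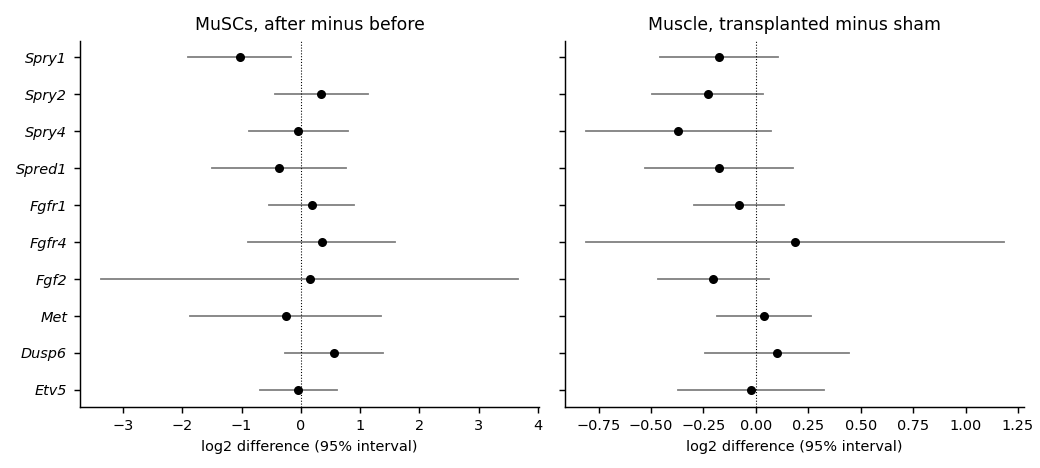
Log2 difference of each of the 10 genes with its 95% interval (horizontal axes), in MuSCs as after minus before (left) and in muscle as transplanted minus sham (right). The Spry1 interval in MuSCs is the 1 interval of 20 that does not hold 0.

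Of the 74 further genes, 64 could be tested in muscle and none passed edgeR's adjusted threshold, with 23 positive and 41 negative log2 differences and a median of -0.07. At an unadjusted p under 0.05 there were 9 of the 64, beside 7.08% of all genes tested, and 7 of the 9 had negative differences. Egr1, an early transcription factor downstream of ERK, had the smallest p: its mean was 11.2 ± 6.17 CPM over the 6 transplanted and 53.1 ± 15.7 CPM over the 3 sham libraries (SD), without overlap (-2.33 ± 0.42). Its adjusted p by edgeR was 0.535, and 0.00337 when no filter on low counts was used. Fos averaged 19.6 ± 5.32 and 68.3 ± 48.3 CPM (-1.85 ± 0.41), Junb 8.63 ± 2.98 and 19.7 ± 8.68 CPM (-1.22 ± 0.30) and Egr2 0.617 ± 0.333 and 1.02 ± 0.273 CPM (-0.97 ± 0.35). Gpc1 and Fgf13 were the 2 with higher means in transplanted muscle, by 0.25 ± 0.09 and 0.18 ± 0.08. Of the genes tested, Egr1, Gpc1 and Fgf13 did not overlap between the groups, beside 2.11% of all genes.

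Klb, the co-receptor of endocrine FGFs, had means of 0.385 ± 0.394 CPM in transplanted muscle and 2.35 ± 2.31 CPM in sham muscle (-2.70 ± 0.69), and the ligand Fgf10 0.374 ± 0.205 and 1.44 ± 1.48 CPM (-1.91 ± 0.62). Both overlapped, with sham 12 highest. Markers of fat cells had the same sign: 6 of 6 had negative differences with a median of -1.67, and their summed level was 29.1 to 183 TPM in transplanted and 40.9 to 584 TPM in sham libraries. Macrophage and leukocyte markers were negative in 6 of 6, at 10.0 to 17.1 and 12.6 to 24.3 TPM, and fibroadipogenic markers in 6 of 8, at 232 to 300.3 and 299.97 to 509 TPM. Their part in the differences of Klb and Fgf10 was not tested.

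Hgf had 7 counts over 6 transplanted and 17 over 3 sham libraries and was not tested, and Fgf7 (-0.16 ± 0.29), Fgf1 (0.29 ± 0.19) and Fgf6 (0.33 ± 0.25) overlapped between the groups. The negative regulators gave -0.06 ± 0.17 for Spred2, -0.41 ± 0.37 for Spred3, -0.47 ± 0.29 for Dusp4, 0.42 ± 0.24 for Dusp7 and 0.09 ± 0.20 for Il17rd. Cbl, the ubiquitin ligase that directs receptors to degradation, differed by -0.25 ± 0.10, Mst1r, the receptor related to Met, by -0.97 ± 0.47, Map2k2 by 0.21 ± 0.10, Fgfr3 by 0.23 ± 0.30, Etv4 by 0.09 ± 0.29 and Etv1 by -0.13 ± 0.17. No difference of these genes passed the adjusted threshold by edgeR.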

How the data were processed

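RNA from 6 MuSC and 9 muscle samples was extracted with Trizol and made into libraries with a NEBNext Ultra kit, per the labels' protocols. The authors deposited estimated counts, TPM and FPKM for 56953 genes in 3 tables, per the file headers. No source used here names the aligner, the quantifier or the annotation. Builds GRCm38 and mm10 are named, per the submitters' processing notes, yet 1409 of 52029 genes shared with a GRCm38 annotation had the same coordinates and 0 of the 10 members did, so no file coordinates are printed. Effective length is the value that turns the deposited count into the deposited FPKM. Another 3 columns matched no sample and were not used.

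The deposited estimated counts were rounded and tested in edgeR 4.0.16 (R 4.3.3) by the quasi-likelihood test, with filterByExpr by group (minimum count 10), TMM and Benjamini-Hochberg adjustment over all genes tested, 2-sided, threshold 0.05. MuSCs were fitted as 3 after against 3 before, and muscle as 6 transplanted against 3 sham with the table as a term. SE is the size of a log2 difference over the root of F. P values set a group difference against the spread between libraries of a group. In muscle this spread is taken within a table, and in MuSCs it mixes mouse and name form. The main MuSC fit had no term for either. The steps were tested on simulated counts. Titles pair MuSC libraries by mouse, so the numbers were taken as pairs, although deviations from group means correlated at 0.28 (mouse 5), 0.29 (mouse 6) and -0.32 (mouse 11), and at 0.49 between after 11 and before 6. Among libraries of the same group and table, no pair agreed within sampling noise, and other pairs were not checked. Alternatives were DESeq2 1.42.0, its size factors, no filter, the mouse as a block, the name form, the tables separately, and each library left out.

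The members, lists and alternatives were chosen with earlier results of these data known. The genes named were the 10 members, 10 further pathway genes whatever their values, the gene of each sublist with the largest F statistic in each comparison, and the 5 genes most like Spry1. Pathway genes at an unadjusted p under 0.05 or with separate groups were named after their values were seen. Groups of sham and transplanted muscle came from titles, since the treatment entry is the same for both. Depth was 17.09 to 22.98 M counts.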

Additional observations from a re-analysis of the deposited data

How the results depend on the processing

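None of the 10 genes passed the adjusted threshold in either comparison under any alternative run. In MuSCs the count over all genes was 18 with DESeq2, 43 within the number-first libraries alone and 0 elsewhere. In muscle it was 12 with no filter, 17 with DESeq2, 1 in the 2-sham table alone, 41 in the 1-sham table alone, and 0 to 4 with 1 library left out (4 without sham 192, 2 without transplanted 94). The number-first libraries hold 1 after and 2 before, the letter-first ones 2 after and 1 before, and the 1-sham table a lone sham, so the 43 and 41 rest on an arm of 1 library that is assumed to vary like the others. The causes were not tested. Without after 5, 3545 genes had an unadjusted p under 0.05, against 151 to 328 without another library. With the replicate block, Spry1 was at -1.04 and Fgf2 turned to -1.32, and the block changed no call. Of 130 alternative values for the 10 genes in MuSCs 22 changed sign, and 14 of 150 in muscle; none was of Spry1 in MuSCs. Number-first libraries alone gave -0.26 for Spry2, 0.19 for Spred1, -0.13 for Fgfr1, -0.29 for Fgfr4, 0.36 for Met, 1.71 for Fgf1, -0.24 for Etv4, -0.14 for Dusp4 and -2.25 for St14. Letter-first libraries alone gave 0.18 for Spry4, -1.52 for Fgf2 and 0.17 for Etv5, and the name form as a term -0.007 for Fgfr1, -0.006 for Fgfr4 and 0.002 for Met. Leaving out 1 MuSC library gave -0.45 to 0.17 for Spry4, -0.05 to 0.35 for Fgfr1, -0.40 to 0.62 for Fgfr4, -3.95 to 0.96 for Fgf2, -1.01 to 0.22 for Met, -0.17 to 0.12 for Etv5, -2.88 to 0.32 for Fgf1, -0.31 to 1.18 for Il17rd, -0.39 to 0.42 for Etv1 and -0.082 to 2.36 for St14. In muscle the 1-sham table alone gave 0.004 for Spry1, -0.014 for Met, 0.10 for Etv5 and 0.055 for Spred2, the 2-sham table alone 0.067 for Fgfr1, -0.26 for Fgfr4, 0.03 for Etv1 and 0.23 for Spred3, and no table term 0.034 for Etv5. Leaving out 1 muscle library gave -0.16 to 0.073 for Fgfr1, -0.26 to 0.84 for Fgfr4, -0.013 to 0.078 for Met, -0.11 to 0.038 for Etv5, -0.30 to 0.024 for Fgf7, -0.007 to 0.18 for Il17rd, -0.071 to 0.26 for Etv4, -0.25 to 0.035 for Etv1, -0.13 to 0.032 for Spred2, -0.75 to 0.23 for Spred3 and -0.12 to 0.66 for Fgfr3. With 3 libraries a group in MuSCs, the 95% intervals of the 10 genes were wider than 1 log2 unit in each case. Fgf2 rested on 3.29 to 14.4 estimated counts in the letter-first libraries.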
